A study of Mus musculus with 6 samples.

Results

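The genes described here encode the enzymes and carriers of glycolysis, gluconeogenesis and the pentose phosphate pathway, measured in sorted intestinal stem cells of mice given a Notch pathway inhibitor or its vehicle. They were taken from a list of 41 gene symbols. A listed gene was measured when the array's probe table gave at least 1 probe set that symbol alone, and where it had several, the one with the greatest mean level over the 6 arrays stood for it. Of the 41 genes, 35 were measured in this way, out of 18193 genes on the arrays. Gpi1, Pfkfb1, Eno1, Mpc2 and G6pdx have no single-symbol probe set in the table used here, and Gapdh was represented only by array control probe sets and by probe sets that carry several symbols, so these 6 genes were not tested.

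The cells of all 6 samples came from mice with Lgr5-EGFP-IRES-creERT2, an allele in which the Lgr5 gene, a marker of stem cells at the crypt base, drives EGFP and a tamoxifen-inducible Cre recombinase. They were given either DMSO (vehicle) or DBZ, a gamma-secretase inhibitor (GSI) that stops the cleavage that activates Notch receptors. After 24 h, small intestinal cells with high GFP were sorted and their total RNA was hybridised to Affymetrix arrays, with 3 samples per group. The titles call the samples of a group biological replicates, each of cells from a mouse. The sample titles set the groups, although the description of every sample names DMSO, and the labels used here state no age, sex or background strain.

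Each value is a probe set intensity in linear units, and array medians were 44.9 to 46.3. Olfm4, a Notch-dependent stem cell gene, was at 3627 to 5177 in the arrays titled vehicle and 18.6 to 35.9 in those titled DBZ, in the direction the titles give. Of the 8 stem cell markers 3 passed the test described below, Olfm4 and Ascl2 lower and Rgmb higher, and Lgr5 itself was at 204 to 271 and 209 to 242. Of 10 goblet and Paneth markers 5 passed, all higher (Atoh1, Agr2, Spdef, Fcgbp and Mmp7), against 3.82% of all genes, while Lyz1 was lower in every DBZ array (-0.30) without passing and Defa3 was at -0.02. Of 8 enteroendocrine markers 3 passed, all higher (Neurod1, Isl1 and Pcsk1). The 8 epithelial markers had summed intensities between 93699 and 105101 in vehicle and between 95338 and 101563 in DBZ arrays. The sorted cells were measured in bulk, so fewer cells of a type and less RNA per cell cannot be told apart. Actin control probe sets gave a 3' to 5' ratio, which rises as RNA degrades, of 1.61, 1.69 and 2.22 in vehicle against 1.51, 1.53 and 1.57 in DBZ arrays. The same ratio of the Gapdh control probe sets was 1.07, 1.11 and 1.42 in vehicle and 1.05, 1.08 and 1.09 in DBZ arrays, with overlap. Vehicle replicate 1 was the highest array in both ratios. The actin ratio did not overlap between groups, so it moved with every difference below, in which its part was not tested.

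Glycolysis breaks glucose down to pyruvate, which is reduced to lactate or enters mitochondria. Gluconeogenesis runs in the opposite direction and needs its own enzymes at the steps that glycolysis cannot reverse, among them fructose-bisphosphatase and phosphoenolpyruvate carboxykinase. The pentose phosphate pathway branches off at glucose-phosphate and supplies NADPH and the ribose of nucleotides. In the small intestine, gluconeogenic enzymes belong to the differentiated absorptive epithelium, while crypt cells are known for active glycolysis.

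DBZ arrays showed lower levels of a few genes at separate steps, and a median difference near 0 over the pathway. Fbp1 (gluconeogenesis), Rpia (pentose phosphate) and Pfkfb4 (control of phosphofructokinase) fell, and none of the 35 genes rose (limma over all genes, Benjamini-Hochberg adjusted p under 0.05). These 3 calls are 8.57% of the 35 genes, against 5.34% of all genes called in either direction, 1.52% called lower and 3.82% called higher. At an unadjusted p under 0.05 there were 17 of the 35 genes, 9 higher and 8 lower, against 26.3% of all genes. Among the 32 that are above the median level of all genes, 46.9% had such a p and 9.38% were called, against 37.5% and 8.33% of all genes above that level. The largest difference upward was that of Hk2, which did not pass. The median difference over the 35 genes was -0.02 on the log2(intensity + 16) scale, the scale of every log2 difference given here, and the median over all genes was also -0.02. A level was above that of the vehicle group for 17 genes and below it for 18.

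Vehicle and DBZ values did not overlap for 20 of the 35 genes. Among them 11 were higher in DBZ (31.4%, against 17.3% of all genes) and 9 lower (25.7%, against 15.8% of all genes). The genes of glucose metabolism were bright, with a median level at the 84.3 percentile. Among the 32 of them above the median level of all genes, 28.1% did not overlap and were higher and 28.1% did not overlap and were lower, against 23.8% and 17.2% of all 9097 genes above that level.

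**Figure D1:**
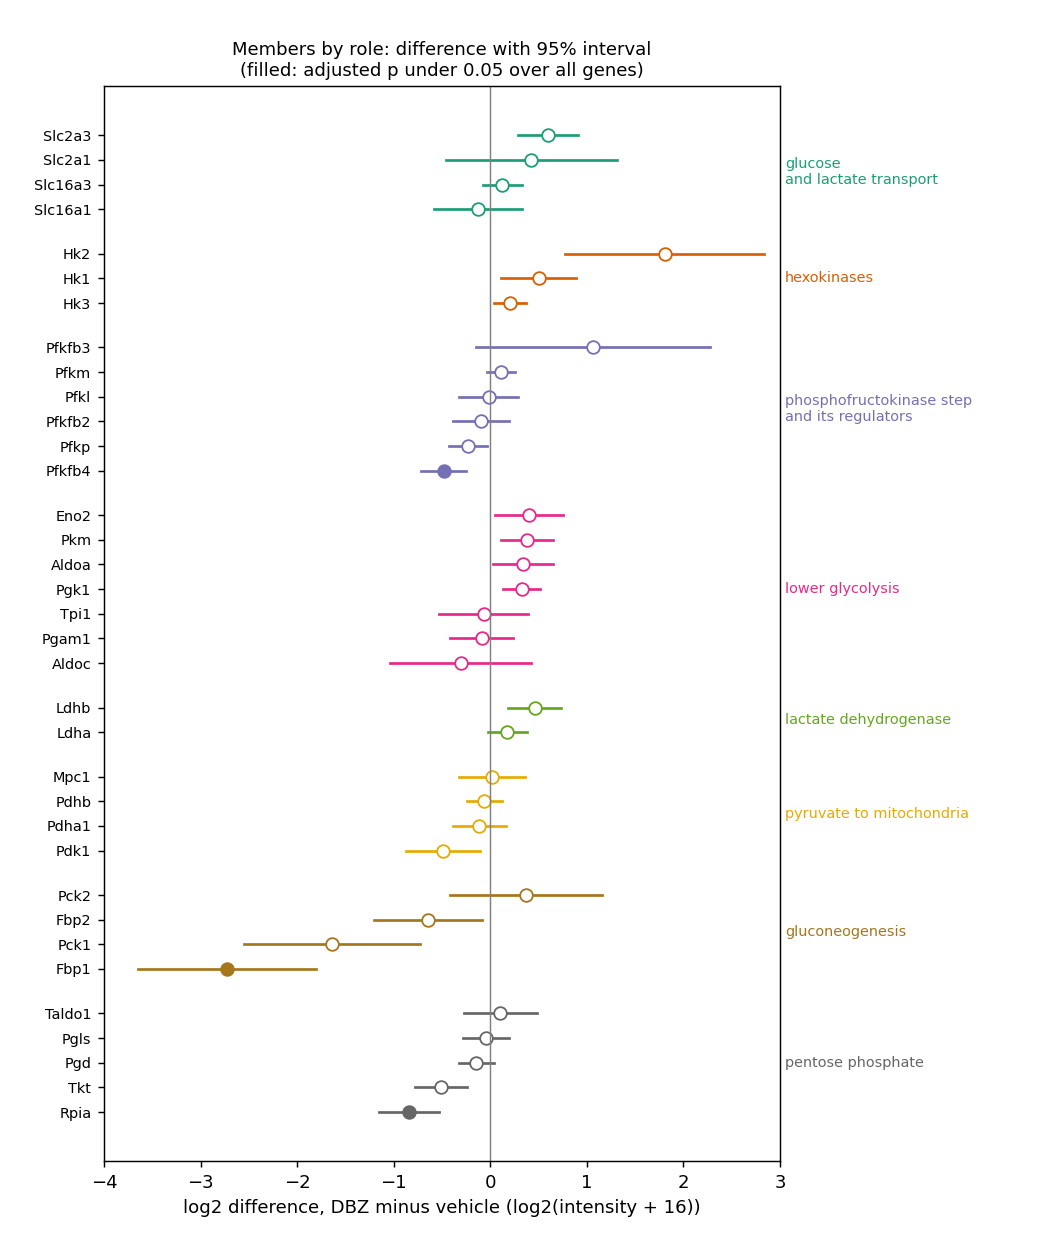
Log2 difference between DBZ and vehicle (x axis, log2(intensity + 16) units) for each of the 35 measured genes (y axis), in order of role; points are differences of the means of 3 arrays per group, lines are 95% intervals and filled points passed the test over all genes. Fbp1, Rpia and Pfkfb4 are filled, all left of 0, and Hk2 lies farthest right with an interval of 0.77 to 2.84.

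The promoters of the 3 genes that fell and of Hk2 are shown because those 3 passed the test and Hk2 had the largest difference upward. Each is the 250 bases before the transcription start in RefSeq (GRCm38.p6), written 5′ to 3′ on the strand of the gene. They lie at chr13:62888283-62888532 (minus strand), chr6:70792176-70792425 (minus strand), chr9:108991652-108991901 (plus strand) and chr6:82774455-82774704 (minus strand). Capitals mark matches, on either strand, to 4 motifs: TGGGAA, the core bound by the Notch partner RBPJ; ACGTG or GCGTG, the core bound by hypoxia-inducible factors; the CACGTG E-box, which contains ACGTG; and the CAGCTG E-box.
Fbp1: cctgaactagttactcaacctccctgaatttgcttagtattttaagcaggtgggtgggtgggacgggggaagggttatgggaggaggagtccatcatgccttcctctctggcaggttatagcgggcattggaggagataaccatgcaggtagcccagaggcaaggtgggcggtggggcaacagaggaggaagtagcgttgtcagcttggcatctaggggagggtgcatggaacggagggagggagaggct
Rpia: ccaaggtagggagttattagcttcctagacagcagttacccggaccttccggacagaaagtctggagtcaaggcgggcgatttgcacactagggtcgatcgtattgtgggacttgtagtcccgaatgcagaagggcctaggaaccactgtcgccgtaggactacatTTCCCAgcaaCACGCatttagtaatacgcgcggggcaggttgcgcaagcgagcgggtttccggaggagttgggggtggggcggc
Pfkfb4: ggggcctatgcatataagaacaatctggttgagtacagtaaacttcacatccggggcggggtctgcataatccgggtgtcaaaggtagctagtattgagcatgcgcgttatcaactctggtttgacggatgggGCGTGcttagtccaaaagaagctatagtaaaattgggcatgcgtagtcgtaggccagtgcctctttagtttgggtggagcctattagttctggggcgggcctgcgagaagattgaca
Hk2: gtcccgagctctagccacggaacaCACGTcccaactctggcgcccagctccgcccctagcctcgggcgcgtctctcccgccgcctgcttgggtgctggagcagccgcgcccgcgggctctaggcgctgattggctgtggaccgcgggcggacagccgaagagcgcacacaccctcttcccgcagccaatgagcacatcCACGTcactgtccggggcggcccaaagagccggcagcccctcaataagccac
In Fbp1 none of these letters occurred. Rpia held the RBPJ core on the opposite strand, starting 84 bases before the transcription start, and the hypoxia core 74 bases before it. In Pfkfb4 the hypoxia core lay 117 bases before the start, and Hk2 held it at 226 and 52 bases before the start. Of 32851 promoter windows of the same length, 21.6% held the RBPJ core, 38.6% the hypoxia core, 6.02% CACGTG and 13.0% CAGCTG. The 49 windows of the 34 measured genes that RefSeq matched held them in 12.2%, 77.6%, 12.2% and 10.2%. These windows had a median GC content of 59.6%, against 52.4% over all windows. Among windows with at least 60% GC, the hypoxia core was present in 63.8% of all and in 22 of the 24 such windows of these genes. A match is a description of the letters and not a binding site.

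Of the 4 gluconeogenic genes 1 (25%) passed the test, against 5.34% of all genes. This was Fbp1, which had the largest difference of the 35 genes. Fbp1, fructose-bisphosphatase, was at 599, 978 and 696 intensity units in vehicle replicates 1, 2 and 3 and at 90.1, 180 and 56.2 in DBZ replicates 1, 2 and 3. Every DBZ array was far below every vehicle array, and DBZ replicate 3 was the lowest. The mean fell from 757 ± 197 to 109 ± 64.1 (SD, n = 3), a log2 difference of -2.72 ± 0.38 (SE; limma, adjusted p = 0.027), the fifth lowest of all 18193 genes. A single probe set reports Fbp1.

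Pck1, the cytosolic phosphoenolpyruvate carboxykinase, was at 922, 1748 and 835 in vehicle and 461, 214 and 409 in DBZ arrays. The groups did not overlap, vehicle replicate 2 was high and DBZ replicate 2 low. Its difference of -1.64 ± 0.38 (SE) did not pass (limma, adjusted p = 0.061), and the mean of its 3 probe sets gave -0.79. Fbp2, the muscle-type fructose-bisphosphatase, was at 3331, 4455 and 3893 in vehicle and 3030, 2858 and 1736 in DBZ arrays, a difference of -0.64 ± 0.23 (SE; limma, adjusted p = 0.15). Again every DBZ value was below every vehicle value, and DBZ replicate 3 was the lowest.

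Pck2, the mitochondrial carboxykinase, overlapped between groups. It was at 415, 454 and 476 in vehicle and 359, 572 and 956 in DBZ arrays, so that DBZ replicate 1 was the lowest and replicate 3 the highest of all 6. The difference was 0.37 with a 95% interval of -0.42 to 1.16.

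Markers of absorptive enterocytes were set beside these genes. Of 12 enterocyte markers 10 were measured, and their log2 differences were all below 0, with a median of -0.40. For Apoa4, at -0.13, the mean of the linear intensities was higher in DBZ. None passed the test (limma; 5 had an unadjusted p under 0.05, all lower, against 11.3% of all genes). Their summed intensity was between 69715 and 73131 in vehicle and between 53593 and 69277 in DBZ arrays, lowest in DBZ replicate 3, and none of them was listed at 0. Adipocytes also express Pck1. The 8 measured of 10 adipocyte markers had a sum between 1773 and 3520 in vehicle and between 5497 and 12626 in DBZ arrays. Of these 8, 2 passed the test (Adipoq and Retn, higher) and none was listed at 0. The vehicle mean was exceeded by 6, while Pparg and Lep were at -0.06 and -0.03. The adipocyte sum was higher in the arrays in which Pck1 was lower. The part of either cell type in these differences was not tested.

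Hexokinases trap glucose in the cell by phosphorylation. Hk1, Hk2 and Hk3 were all higher in every DBZ array than in any vehicle array, as were 17.3% of all genes. None of the 3 passed the test. Hkdc1, a further hexokinase gene read from the other pathway genes described below, went the other way. It was at 1956, 2516 and 1997 in vehicle and 1615, 1471 and 637 in DBZ arrays. Its difference was -0.89 ± 0.35 (SE; limma, adjusted p = 0.18), and it was chosen after its values were seen. Hk2, the inducible form that binds mitochondria, was at 821, 568 and 1166 in vehicle and 2086, 2183 and 5310 in DBZ arrays. The highest value, that of DBZ replicate 3, was far above the other two. Means were 852 ± 300 and 3193 ± 1834 (SD, n = 3), and the log2 difference of 1.80 ± 0.43 (SE) ranked 62nd highest of all genes but did not pass (limma, adjusted p = 0.064). It was 1.37 without DBZ replicate 3 (limma, adjusted p = 0.077), and it passed in 6 of 18 alternative analyses.

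Hk1, the widely expressed form, was at 290, 285 and 255 in vehicle and 317, 398 and 495 in DBZ arrays. Its difference was 0.50 ± 0.16 (SE; limma, adjusted p = 0.12), and its dimmer second probe set gave 0.41, also without overlap. Hk3, a form known from blood cells, was dim, between 61.9 and 68.5 in vehicle and between 72.0 and 81.1 in DBZ arrays, a difference of 0.21. Neutrophil and macrophage markers (14 measured of 15, none listed at 0) summed to 6963 to 8758 in vehicle arrays. In DBZ replicates 1, 2 and 3 the sum was 12091, 7526 and 17296. Of the 14, 3 passed the test (S100a8, S100a9 and Lcn2, all higher). These 3 carried most of the difference between the group means of the sum. Their means were 19.3, 19.96 and 67.3 in vehicle and 1513, 1416 and 484 in DBZ arrays. The vehicle mean was exceeded by 12 of the 14, while Csf1r and Ptprc were at -0.34 and -0.16. Lyz2 and Cxcr2 were at 0.06 and 0.03. Hk3 had the same order as the sum over the 3 DBZ arrays, at 76.9, 72.0 and 81.1. In vehicle replicates 1, 2 and 3 Hk3 was at 62.4, 68.5 and 61.9 and the sum at 8758, 6963 and 8522. There Hk3 was highest where the sum was lowest. The part of these cells in the Hk3 value was not tested.

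Glucose and lactate carriers gave no call. Slc2a3, a high-affinity glucose importer, was at 114, 104 and 106 in vehicle and 187, 137 and 194 in DBZ arrays, without overlap. The difference of 0.60 ± 0.13 (SE) fell short of the threshold (limma, adjusted p = 0.054). It rests on a probe set ending in _s_at: the probe sets of this gene without such an ending or _x_at were dim, and the brighter of them gave 0.00. The 3 DBZ arrays again had the order of the neutrophil and macrophage sum, and so did the 3 vehicle arrays. The part of these cells in the Slc2a3 value was not tested. Slc2a1, the main basal glucose importer, was at 554 to 648 in vehicle and at 488, 726 and 1439 in DBZ arrays, so only DBZ replicate 3 was well above vehicle (difference 0.42, 95% interval -0.46 to 1.31). Slc16a1, an exporter of lactate, stood at -0.13 (95% interval -0.59 to 0.33), and Slc16a3 was dim, with means of 17.7 and 20.6.

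**Figure D2:**
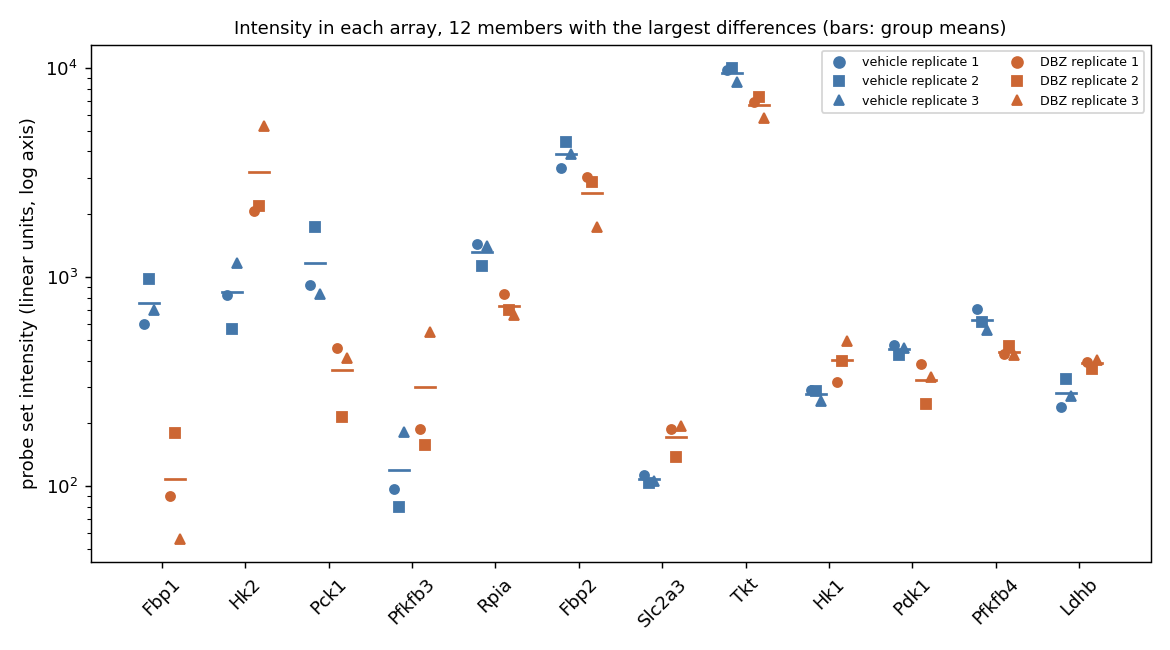
Probe set intensity (y axis, linear units on a log axis) in each of the 6 arrays for the 12 genes with the largest differences (x axis), with vehicle in blue, DBZ in orange, marker shape for the replicate and bars for group means. Fbp1, Pck1, Rpia, Fbp2, Tkt, Pdk1 and Pfkfb4 lie lower and Hk2, Slc2a3, Hk1 and Ldhb higher in all DBZ arrays, while Pfkfb3 overlaps.

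Phosphofructokinase commits glucose to glycolysis, and the bifunctional PFKFB enzymes make and remove its activator. Pfkfb4 was at 704, 611 and 561 in vehicle and 430, 469 and 425 in DBZ arrays. The groups were apart and narrow, and the mean fell from 625 ± 72.3 to 441 ± 24.1 (SD, n = 3), a log2 difference of -0.48 ± 0.10 (SE; limma, adjusted p = 0.048). This value lies at the edge of the threshold and passed in 8 of 18 alternative analyses. Quantile normalization was one of those in which it did not pass (limma, adjusted p = 0.060).

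Pfkfb3, the form with the strongest kinase activity, was at 97.2, 80.0 and 183 in vehicle and 188, 158 and 547 in DBZ arrays. Vehicle replicate 3 lay within the DBZ range, and DBZ replicate 3 set the size of the difference, 1.07 ± 0.50 (SE; limma, adjusted p = 0.24). Its second probe set was dim and lower in every DBZ array, at -0.15, and the mean of its probe sets gave 0.46. Pfkfb2 was at -0.10 (95% interval -0.39 to 0.19). Of the catalytic subunits, Pfkp had means of 2928 and 2487 and was lower in every DBZ array, at -0.23 ± 0.08 (SE; limma, adjusted p = 0.14). Its other probe sets were dimmer, overlapped between groups and gave 0.00 and -0.01. Pfkl was at -0.02 (95% interval -0.32 to 0.29) and Pfkm at 0.11 (95% interval -0.03 to 0.26), the latter without overlap.

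Genes of lower glycolysis, from aldolase to pyruvate kinase, had a median difference of 0.33 over the 7 measured, and none passed the test. Aldoa, Pgk1, Eno2 and Pkm were higher in every DBZ array. They are 57.1% of the 7, against 17.3% of all genes and 23.8% of all genes above the median level. Pgk1, phosphoglycerate kinase, had means of 3870 ± 311 and 4845 ± 166 (SD, n = 3; limma, adjusted p = 0.066). Its other 2 probe sets gave 0.09 each, and both overlapped between groups. Pkm, pyruvate kinase, went from 677 ± 63.96 to 888 ± 105 (SD, n = 3; limma, adjusted p = 0.099). Tpi1, Pgam1 and Aldoc were at -0.07, -0.09 and -0.31, all overlapping. All 5 probe sets of Aldoa end in _x_at, which marks probes that can bind other transcripts. They gave 0.12 to 0.35.

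Vehicle replicate 1 was the lowest array for Aldoa, Pgk1, Eno2 and Pkm and was also the array with the highest actin 3' to 5' ratio, 2.22. The Gapdh control probe sets show the same: the 5' set was at 4262, 6736 and 6874 in vehicle and 8931, 7733 and 8072 in DBZ arrays. Its log2 difference was 0.50, and that of the 3' set 0.35. Control probe sets were not tested. Vehicle replicate 1 was also the lowest array for Pgam1, which was at -0.09, but the highest array for the other probe sets of Pgk1. The part of RNA quality in these values was not tested.

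Lactate dehydrogenase converts pyruvate and lactate. Ldhb, the subunit that favours lactate oxidation, was at 240, 325 and 271 in vehicle and 395, 366 and 402 in DBZ arrays. All 4 of its probe sets were higher in every DBZ array, by 0.20 to 0.46, and the brightest did not pass (limma, adjusted p = 0.070). Ldha, the subunit that favours lactate formation, went from 6045 ± 370 to 6831 ± 520 (SD, n = 3), a difference of 0.18 without overlap (95% interval -0.03 to 0.38).

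Entry of pyruvate into mitochondria showed no call. Pdk1, the kinase that inhibits pyruvate dehydrogenase, was at 476, 426 and 458 in vehicle and 386, 248 and 334 in DBZ arrays. It was lower in every DBZ array, by -0.49 ± 0.16 (SE; limma, adjusted p = 0.12), and its second bright probe set gave -0.48. The pyruvate dehydrogenase subunit genes Pdha1 and Pdhb were at -0.11 (95% interval -0.39 to 0.16) and -0.06 (95% interval -0.24 to 0.12). Mpc1, of the mitochondrial pyruvate carrier, was at 0.02 (95% interval -0.32 to 0.36) and at -0.05 after quantile normalization.

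In the pentose phosphate pathway Rpia fell, and Tkt of the same non-oxidative branch was lower in every DBZ array without passing the test. Rpia, ribose phosphate isomerase, which makes the ribose phosphate used in nucleotides, was at 1439, 1133 and 1415 in vehicle and 833, 700 and 664 in DBZ arrays. No values overlapped. The mean fell from 1329 ± 170 to 732 ± 89.1 (SD, n = 3), a log2 difference of -0.84 ± 0.13 (SE; limma, adjusted p = 0.030). Tkt, transketolase, was at 9800, 10019 and 8569 in vehicle and 6898, 7290 and 5766 in DBZ arrays. All 3 of its probe sets were lower in every DBZ array, and the difference of -0.51 ± 0.11 (SE) did not pass (limma, adjusted p = 0.054).

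Taldo1, transaldolase, the other enzyme of this branch, was at 0.10 (95% interval -0.27 to 0.48). The oxidative branch cannot be judged as a whole, because its gene G6pdx was not measured. H6pd, also of the oxidative steps, was read from the other pathway genes described below and chosen after its values were seen. It was higher in every DBZ array, at 0.54 ± 0.14 (SE; limma, adjusted p = 0.077). Pgls was at -0.05 (95% interval -0.29 to 0.19) and Pgd at -0.14 (95% interval -0.32 to 0.04). No values of Pgd overlapped, but it was at 0.13 when probe sets ending in _x_at or _s_at were avoided.

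**Figure D3:**
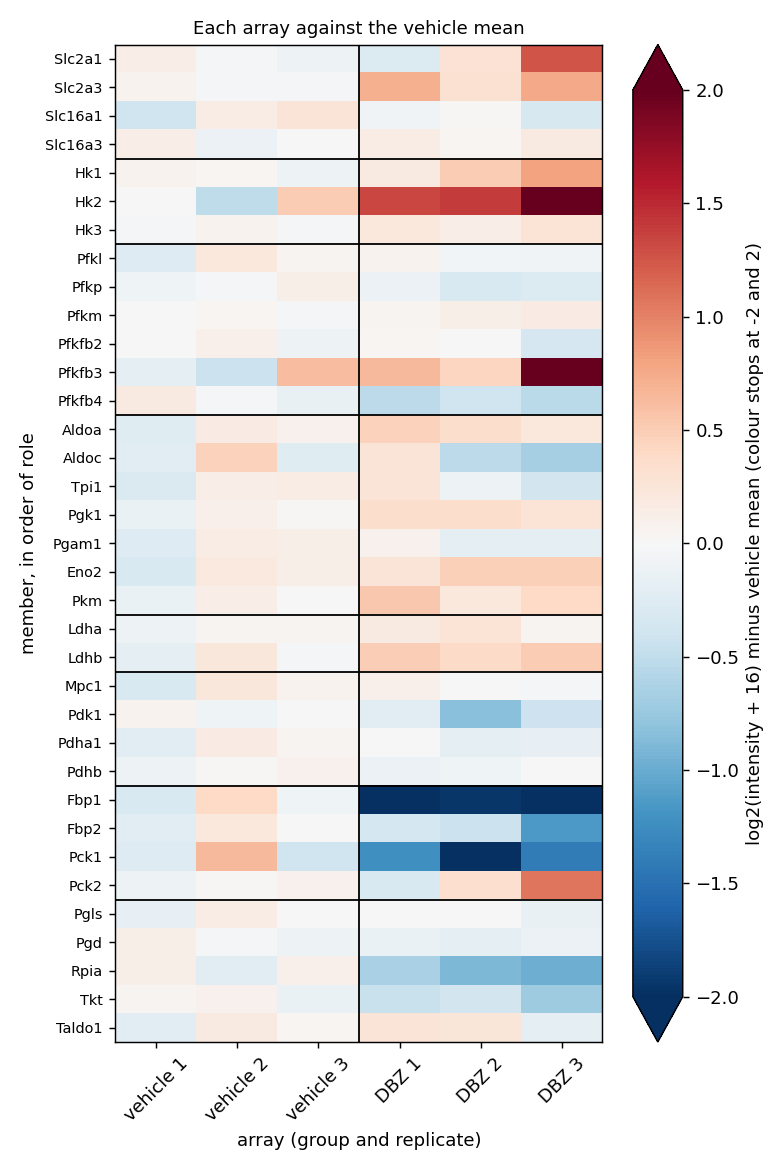
Log2(intensity + 16) of each of the 35 genes (y axis, in order of role) minus its vehicle mean, in each array (x axis); red is above and blue below the vehicle mean, and colours stop at -2 and 2. The gluconeogenesis block is blue in the DBZ arrays except for Pck2 in replicates 2 and 3, and the hexokinase block is red, darkest in DBZ replicate 3.

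DBZ replicate 3 lay farthest from the vehicle mean for 22 of the 35 genes (62.9%), and for 52.8% of all genes. In that array the median deviation of Hk1, Hk2 and Hk3 was 0.81 and that of the 4 gluconeogenesis genes -1.27. These medians were 0.21 and -0.79 in DBZ replicate 1 and 0.50 and -1.19 in DBZ replicate 2. Both medians kept their side of the vehicle mean in each DBZ array. The lower glycolysis median was 0.26, 0.21 and 0.20 in DBZ replicates 1, 2 and 3.

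Isozymes or regulators of a step were compared within each array, as the log2 difference between both genes, over 12 pairs whose members were measured. With 3 arrays against 3 an exact permutation test cannot go below p = 0.1, so no pair could pass; 5 pairs reached that value (two-sided exact permutation test, Benjamini-Hochberg adjusted p = 0.24 over the 12 pairs). The difference between the groups was 2.08 ± 0.31 (SE) for Fbp2 against Fbp1 and 2.01 ± 0.63 (SE) for Pck2 against Pck1. Hk2 stood at 1.31 ± 0.45 against Hk1 and at 1.60 ± 0.52 against Hk3 (SE). Pfkfb4 stood at -0.38 ± 0.14 against Pfkfb2 (SE). Fbp1 and Hk2, both named in the choice of genes, were set side by side as a description only, at -4.53 ± 0.93 (SE).

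The other 7 pairs had exact p values of 0.2 to 0.8. Pfkfb3 against Pfkfb2 was at 1.17 ± 0.75 and Aldoc against Aldoa at -0.64 ± 0.29 (SE). Ldhb against Ldha was at 0.29 ± 0.13, and Slc2a3 against Slc2a1 at 0.17 ± 0.44 with a spread in DBZ arrays of 0.75 (SD). Of the catalytic phosphofructokinase genes, Pfkp stood at -0.22 ± 0.12 and Pfkm at 0.13 ± 0.15 against Pfkl (SE). Slc16a3 against Slc16a1 was at 0.25 ± 0.30 (SE).

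**Figure D4:**
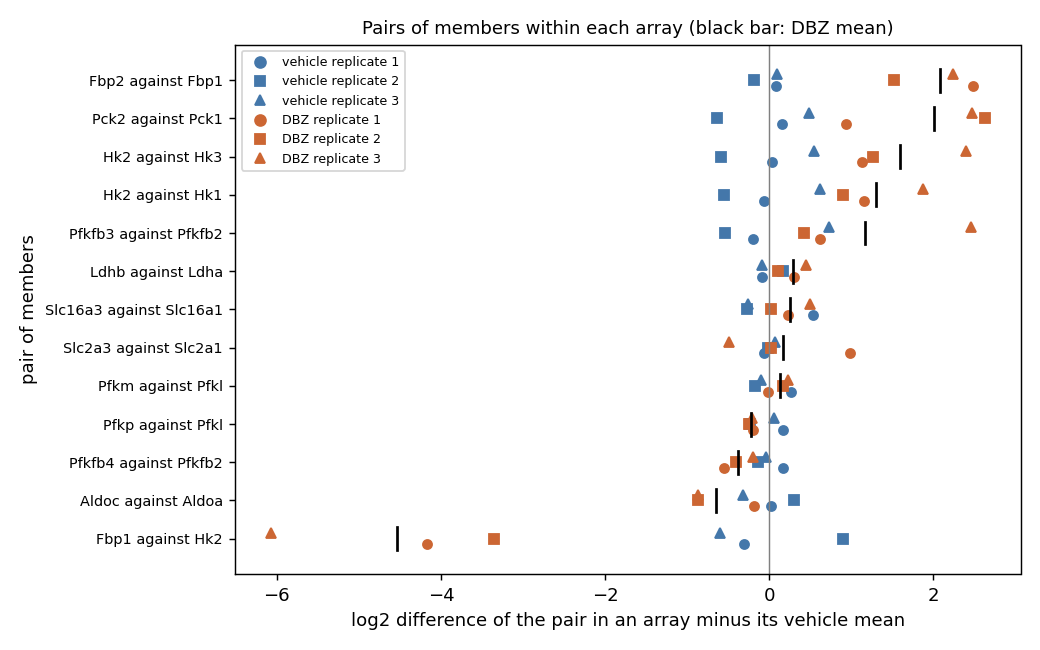
Log2 difference between the genes of a pair in each array, minus its mean in the vehicle arrays (x axis), for the 12 pairs and Fbp1 against Hk2 (y axis); blue points are vehicle, orange points DBZ, shapes are replicates and black bars the DBZ means. The DBZ points of Fbp2 against Fbp1 lie at 1.51 to 2.49 and those of Fbp1 against Hk2 at -6.07 to -3.35, apart from all vehicle points.

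Other genes of glucose and glycogen metabolism were read from a list of 55, of which 53 were measured. Of these 3 rose and 1 fell (limma, adjusted p under 0.05), or 7.55% against 5.34% of all genes, with a median difference of -0.03. G6pc, glucose-6-phosphatase, which releases free glucose at the end of gluconeogenesis, was at 264, 295 and 222 in vehicle and 62.3, 31.5 and 29.3 in DBZ arrays. It fell by 2.31 on the log2 scale, ± 0.23 (SE; limma, adjusted p = 0.016). Its mean in the DBZ arrays lies below the array medians, and the difference was -2.71 with a pseudocount of 1. Slc37a4, which carries glucose-6-phosphate to that enzyme, was lower in every DBZ array, at -0.74 ± 0.20 (SE; limma, adjusted p = 0.079). Pcx, pyruvate carboxylase, also of gluconeogenesis, was higher in every DBZ array, at 0.68 ± 0.20 (SE; limma, adjusted p = 0.092). Slc37a4 and Pcx were chosen after their values were seen.

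The 3 genes that rose were Pygl, Gyg and Slc2a4. Pygl, a glycogen phosphorylase, rose from 81.0 ± 17.0 to 200 ± 46.1 and Gyg, glycogenin, which primes glycogen synthesis, from 488 ± 51.7 to 744 ± 66.4 (SD, n = 3; limma, adjusted p = 0.034 and 0.037). With a pseudocount of 64 neither passed (limma, adjusted p = 0.058 and 0.053). Gyg rests on a probe set ending in _s_at and passed in 9 of 18 alternative analyses; without such probe sets its difference was 0.84 (limma, adjusted p = 0.11). Slc2a4, the insulin-responsive glucose carrier of fat and muscle, rose from 130 ± 8.49 to 225 ± 27.3 (SD, n = 3; limma, adjusted p = 0.027). The adipocyte sum given above was higher in the same arrays. So was that of 12 fibroblast and smooth muscle markers, between 21423 and 31308 in vehicle and between 45331 and 52905 in DBZ arrays, with 7 past the test and none listed at 0. Skeletal muscle markers, 8 in all, had a sum between 725 and 866 in vehicle and between 1288 and 2816 in DBZ arrays, with Ckm and Acta1 past the test, 6 of the 8 dim and none listed at 0. Acta1 carried most of that sum (474 and 1909 in the group means): 4 of the 8 were above and 4 below the vehicle mean, with a median of -0.004, and Tnni2 was lower in every DBZ array (-0.26). The part of these cells in these rises was not tested.

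Of 15 measured regulators of sugar metabolism (16 listed) none passed (limma; 7 had an unadjusted p under 0.05, all lower, against 11.3% of all genes), and 12 were below the vehicle mean, as were 54.6% of all genes. Mlxipl, the glucose-sensing transcription factor ChREBP, was at 773, 1109 and 940 in vehicle and 523, 376 and 226 in DBZ arrays, a difference of -1.35 ± 0.30 (SE; limma, adjusted p = 0.056). Esrra, an activator of mitochondrial genes, was at -0.69 ± 0.16 (SE; limma, adjusted p = 0.066). Its coactivator gene Ppargc1a, chosen after its values were seen, was at 495, 656 and 544 in vehicle and 331, 220 and 101 in DBZ arrays (-1.45 ± 0.38, SE; limma, adjusted p = 0.080). DBZ replicate 3 was the lowest array for all 3, as it was for Fbp1 and Fbp2.

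Of 18 measured genes of hypoxia signalling (20 listed) 1 rose, P4ha2, a collagen prolyl hydroxylase, between 34.4 and 40.0 in vehicle and between 67.7 and 104 in DBZ arrays (limma, adjusted p = 0.033). That is 5.56%, against 5.34% of all genes, and the median was -0.01. Hif1a, chosen after its values were seen, went from 1213 ± 94.6 to 2226 ± 624 (SD, n = 3) without overlap and did not pass (limma, adjusted p = 0.065). The mean of its probe sets gave 0.38 (limma, adjusted p = 0.083). Of the 18 genes 9 were above and 9 below the vehicle mean. Without overlap 4 were higher (22.2%, against 17.3% of all genes) and 2 lower (11.1%, against 15.8% of all genes). Beside P4ha2 and Hif1a the higher ones were P4ha1 and Adm, at 0.90 and 0.78 (limma, adjusted p = 0.062 and 0.10). The lower ones were Car9 and Ankrd37, at -1.36 and -0.75 (limma, adjusted p = 0.12 and 0.13). These were also chosen after their values were seen. Col1a2 and Col3a1 of the fibroblast list rose in the same arrays, by 1.24 and 1.10 (limma, adjusted p = 0.021 and 0.034), and the part of fibroblasts in P4ha2 was not tested.

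**Figure D5:**
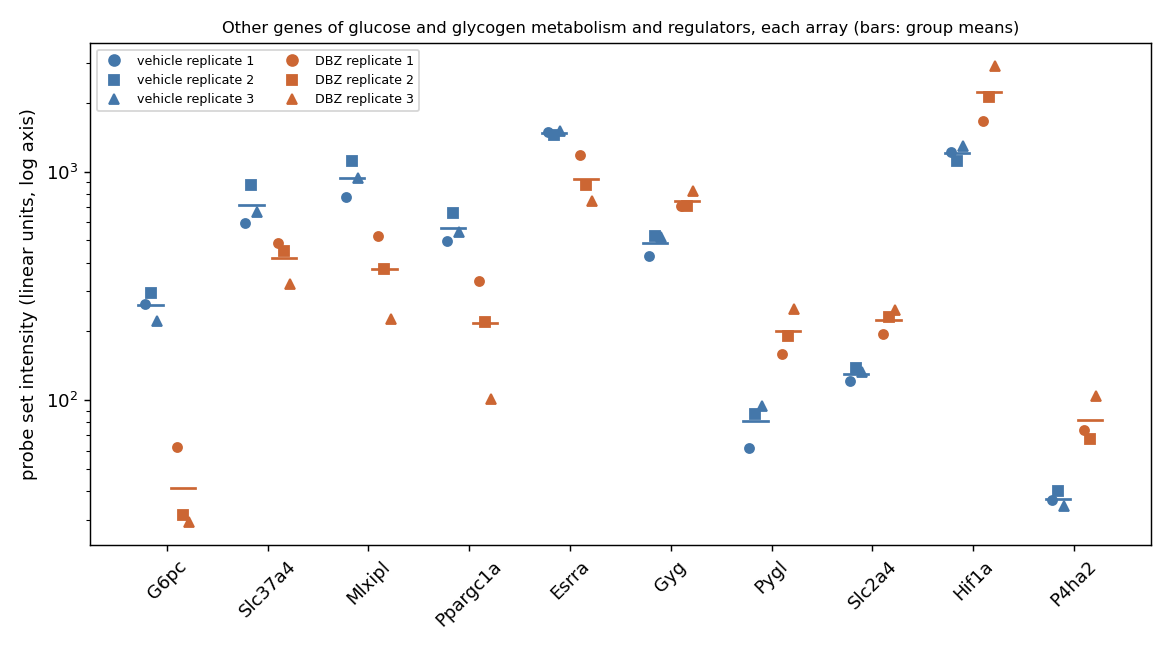
Probe set intensity (y axis, linear units on a log axis) in each array for 10 genes of glucose and glycogen metabolism or its regulation outside the list of 41 (x axis); vehicle is blue, DBZ orange, shapes are replicates and bars group means. G6pc shows the widest gap, with DBZ values of 29.3 to 62.3 below vehicle values of 222 to 295.

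Leaving out 1 array ended most of these calls. When any 1 vehicle replicate was left out, no gene of the 35 passed, and Fbp1 had an adjusted p of 0.081, 0.096 and 0.096 without vehicle replicates 1, 2 and 3 (limma). Fbp1 kept its call without each of the DBZ replicates (limma, adjusted p = 0.026, 0.017 and 0.037). Rpia kept it only without DBZ replicate 1, and Pfkfb4 lost it whichever array was left out (limma, adjusted p = 0.063 to 0.13). Over all genes, the number called also fell from 972 to 49, 19 and 38 without vehicle replicates 1, 2 and 3. It was 2032, 217 and 352 without DBZ replicates 1, 2 and 3. G6pc lost its call when a vehicle replicate was left out (limma, adjusted p = 0.070, 0.077 and 0.063 without replicates 1, 2 and 3) and kept it when a DBZ replicate was. Pygl, Gyg, Slc2a4 and P4ha2 also lost theirs when any 1 vehicle replicate was left out.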

How the data were processed

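RNA of the sorted cells was labelled for hybridisation with an in vitro transcription kit, per the labels' protocols. The authors deposited 1 intensity per probe set, linear and positive. How they were summarised, background-corrected or normalized: not given in the sources used here. Of 45101 probe sets, those with 1 gene symbol that were not array controls were kept, with the brightest per gene. Array medians on the log2(intensity + 16) scale differed by 0.03 at most, so values were used as deposited. Groups were compared with limma 3.58.1 (R 4.3.3; lmFit and eBayes, two-sided), with Benjamini-Hochberg adjustment over 18193 genes and a threshold of 0.05. The fit was tested on simulated data. Adding 16 shrinks the differences of dim genes, and the number of arrays limits all precision.

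All 41 members are accounted for; values of each array are printed for genes that passed, for Hk2 and Fbp1, and for the 12 with the largest differences. From the 3 lists of other pathway genes, hypoxia genes and regulators, genes past the test are named, or the 2 with the smallest p. Others named from them were chosen after their values were seen, and marker lists are summarised. The members, lists and rules were chosen with earlier results of these data known. Alternatives were other normalizations, pseudocounts, filters, probe sets, variance models, array weights, a replicate block, ordinary t statistics and omission of each array in turn. Promoter letters come from RefSeq, which matched 40 of the 41 listed and 34 of the 35 measured genes.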

Additional observations from a re-analysis of the deposited data

How the results depend on the processing

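Of 625 values of single genes under alternatives, 556 kept direction and side of the threshold, 20 lost a call, 32 gained one and 17 changed sign. The cause of these changes was not tested. Genes called among the 35 numbered 7 with a pseudocount of 1, with either filter on dim genes and with trend and robust variance (Fbp1, Rpia, Pfkfb4, Pck1, Tkt, Hk2 and Slc2a3 in each), 10 with array weights, 0 with ordinary t statistics (13 at an unadjusted p under 0.05) and 0 to 6 when an array was left out. Over all genes the count was 440 with a pseudocount of 64, 1531 with intensities of at least 50 in 3 arrays, 2690 with array weights, 0 with ordinary t statistics (3731 at an unadjusted p under 0.05) and 19 to 2032 when an array was left out. Numbers in the titles gave deviations that correlated at -0.01, 0.25 and 0.20 for replicates 1, 2 and 3. Between unlike numbers the correlations were -0.29 to 0.01. With so few arrays these values cannot decide whether the numbers pair the samples. With the replicate block 5 genes were called (Fbp1, Rpia, Tkt, Hk2 and Pfkfb3), and 889 over all genes. No called gene changed sign under these alternatives. Mpc1 was at -0.045 with quantile normalization, -0.065 with array weights and -0.13 to 0.14 when an array was left out. Pfkl was at 0.0065 with the mean of probe sets, and Pgd at 0.13 without _x_at or _s_at probe sets. When an array was left out Pfkl ranged from -0.14 to 0.087, Tpi1 from -0.23 to 0.077, Pgls from -0.13 to 0.029, Pfkfb2 from -0.17 to 0.022 and Taldo1 from -0.0043 to 0.25. Slc2a3 against Slc2a1 was at -0.33 with the mean of probe sets, -0.42 without those endings and -0.24 to 0.50 when an array was left out. Probe set brightness limits Slc16a3, Hk3 and Eno2, which were dim.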
